A study of Arabidopsis thaliana with 9 samples.

Results

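The knock-out line clpp2-2 of Arabidopsis thaliana was compared with its wild type, gene by gene, by RNA sequencing of whole seedlings. The comparison sets 3 libraries labelled clpp2-2 against 3 labelled wild type, 6 of the series' 9, with the spread estimated from all 9. It covers the 20294 genes, of 22254 in the table, that had enough counts to be tested, and 1960 were not tested. Both groups were of the accession Columbia-0, were grown for 2 weeks in shaken liquid culture with 16 h light (150 µmol m-2 s-1, 22 °C) and 8 h dark (18 °C), and received no other treatment. The remaining 3 libraries come from clpp2-1, a second knock-out line of the same gene in the same background. Each line is a single allele, the seedlings were not dissected, and the labels do not say whether replicates came from separate cultures. P-values therefore reflect the spread among these libraries alone, part of which could be technical.

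CLPP2 encodes the proteolytic subunit of the Clp protease, which degrades selected proteins of the mitochondrial matrix. Mitochondria and chloroplasts import most of their proteins from the cytosol, so that a change inside either organelle is often accompanied by changes in nuclear transcription. In seedlings mitochondria, peroxisomes and chloroplasts share carbon. Peroxisomes break down fatty acids by β-oxidation, the glyoxylate cycle turns the acetyl units into organic acids, and gluconeogenesis turns these into sugar.

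The targeted gene was low in every clpp2-2 library. CLPP2 (AT5G23140, chr5:7783673-7785547, plus strand, TAIR10.1) stood at 44.5, 46.5 and 42.9 CPM (counts scaled to the library size) in wild-type libraries 1, 2 and 3, and at 4.64, 4.64 and 4.52 CPM in clpp2-2. Its log2 change was -3.28 (SE 0.0849, edgeR quasi-likelihood test, Benjamini-Hochberg adjusted p = 1.33e-06). In clpp2-1 it stood at 5.72, 4.88 and 6.08 CPM, so the gene was low in both knock-out lines.

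Library totals were close, from 36043744 to 36477053 counts, and the common biological coefficient of variation was 0.176. Wild-type library 2 stood apart from libraries 1 and 3: their counts differed by 33.2 and 31 chi-square units per gene, against 15.3 between 1 and 3 and 6.39 to 15.7 among the clpp2-2 libraries. Genes called at an adjusted p under 0.05 numbered 2044 (10.1%) with all libraries, 4242 without wild-type library 2 and 502 to 783 when any 1 of the other libraries was left out. For that reason calls that a single left-out library other than wild-type library 2 ended are named beside the genes. RNA of seed storage proteins was summed at 109.7, 23.7 and 0.431 CPM in the wild-type libraries and at 0.687, 1.13 and 1.21 CPM in clpp2-2; 0 of its 6 tested genes were called, and its part in other results was not tested. Fewer cells of a type and less RNA per cell cannot be told apart in such bulk samples.

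Most nuclear genes that changed in clpp2-2 changed by less than 2-fold. Of 20101 nuclear genes tested, 1046 were called higher (5.20%) and 927 lower (4.61%), so that 9.82% were called in all. The called genes had a median absolute log2 change of 0.47, with quartiles of 0.32 and 0.8. Only 188 higher genes (0.935%) and 160 lower genes (0.796%) changed at least 2-fold. The calls were spread over the 5 chromosomes, with 9.35 to 10.2% of the genes called on each. The share called was 3.96% for genes under 1 CPM and 12.9% for genes over 100 CPM. In all 2044 called genes the 3 clpp2-2 values lay beyond the 3 wild-type values, which was also true of 33.8% of all genes tested. Of the organelle genes, 49 of 116 mitochondrial identifiers were called higher (42.2%) and 1 lower (0.862%), and 21 of 77 plastid identifiers were called higher (27.3%) and 0 lower.

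**Figure D1:**
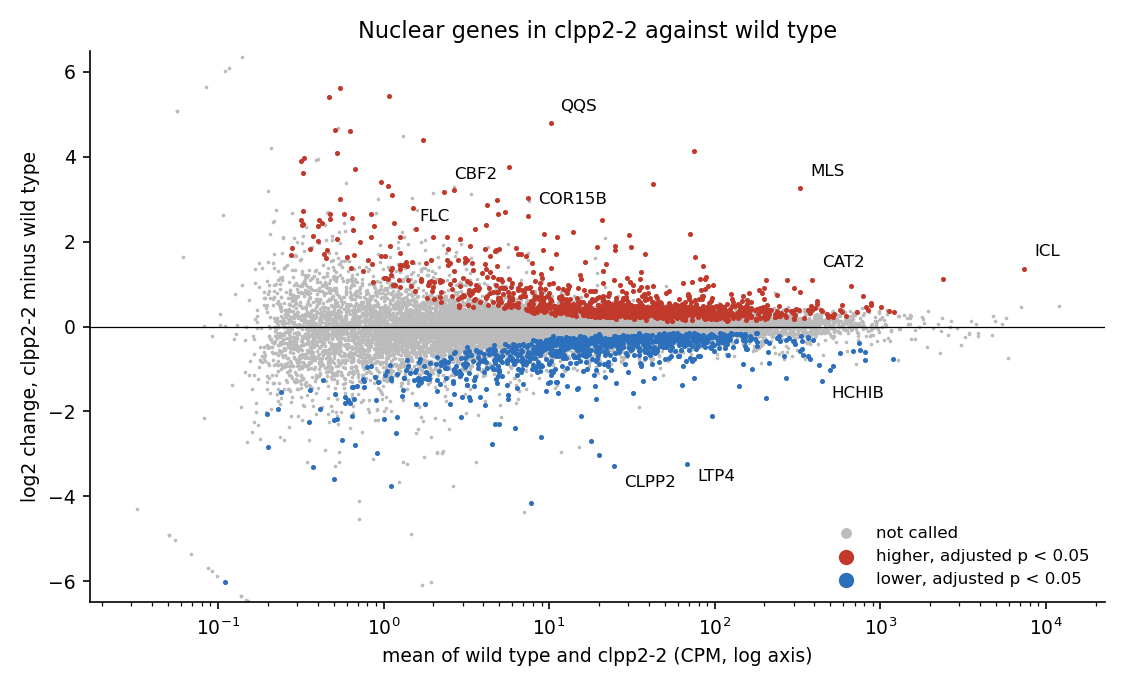
Each point is 1 nuclear gene, placed by its mean over the wild-type and clpp2-2 libraries (CPM, log axis) and by its fitted log2 change (clpp2-2 minus wild type). Red points are the 1046 genes called higher and blue points the 927 called lower; 74 genes lie beyond the plotted limits of 6.5 in either direction. CLPP2 is among the lower genes, and ICL is the called gene furthest to the right.

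Genes for the conversion of fat to sugar were higher in clpp2-2. Of 8 genes of the glyoxylate cycle and gluconeogenesis, 6 rose (75%), against 5.20% of all nuclear genes, and 0 fell. The list's median log2 change was 1.00, beside -0.013 for all nuclear genes. Its summed level was 6160.4, 6158 and 6226 CPM in the wild-type libraries and 17984, 14227 and 13812 CPM in clpp2-2. The 2 enzymes found only in this cycle, isocitrate lyase (ICL, AT3G21720, chr3:7652487-7656053, minus strand) and malate synthase (MLS, AT5G03860, chr5:1032099-1034973, minus strand), were both among them. The 200 bases before the annotated start of each gene, read on the gene's own strand from the RefSeq TAIR10.1 genome, are shown because these are the genes on which the result turns. Capitals in the ICL window (chr3:7656054-7656253) mark an abscisic acid response element (ACGTGNC), and those in the MLS window (chr5:1034974-1035173) mark site II elements (TGGGCT, and TGGGCC on the other strand).
ICL: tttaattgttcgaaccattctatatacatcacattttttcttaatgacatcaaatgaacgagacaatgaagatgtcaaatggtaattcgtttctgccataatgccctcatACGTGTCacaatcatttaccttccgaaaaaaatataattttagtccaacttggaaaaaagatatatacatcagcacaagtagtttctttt
MLS: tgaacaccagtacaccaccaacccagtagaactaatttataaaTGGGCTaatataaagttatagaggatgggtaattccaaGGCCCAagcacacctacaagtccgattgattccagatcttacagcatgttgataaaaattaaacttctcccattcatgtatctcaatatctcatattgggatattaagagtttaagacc
These windows share none of the motifs searched, and a match is a match of letters, not a site.

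ICL, which splits isocitrate into glyoxylate and succinate, stood at 4292, 3914 and 4216 CPM in the wild-type libraries and 12724, 9752 and 9448 CPM in clpp2-2. All 3 clpp2-2 values lay above all 3 wild-type values, and the fold of the means was 2.57 (log2 change 1.36, SE 0.152, adjusted p = 0.00219). MLS, which joins glyoxylate with acetyl-CoA to give malate, stood at 50, 86.7 and 49.3 CPM and 706, 552 and 523 CPM. The highest wild-type library stayed far under the lowest clpp2-2 library, and the fold of the means was 9.58 (log2 change 3.26, SE 0.265, adjusted p = 0.000519). PCK1, the phosphoenolpyruvate carboxykinase that commits organic acids to sugar, stood at 1353, 1672 and 1488 CPM in the wild type and 3675, 3161 and 3069.8 CPM in clpp2-2 (log2 change 1.13, SE 0.104, adjusted p = 0.000898). PPDK, pyruvate orthophosphate dikinase, which makes phosphoenolpyruvate from pyruvate, stood at 39.9, 46.4 and 52.7 CPM and 144, 114 and 117 CPM (log2 change 1.43, SE 0.167, adjusted p = 0.00272). The peroxisomal citrate synthase CSY3 rose from 178 ± 4.74 to 299.6 ± 28.3 CPM (mean ± SD, n = 3, log2 change 0.75), and the peroxisomal malate dehydrogenase PMDH1 from 131 ± 0.822 to 239 ± 30.8 CPM (0.87). The second copies of these enzymes did not pass the test: CSY2 had a log2 change of 0.07 (adjusted p = 0.472) and PMDH2 of 0.36 (adjusted p = 0.245). All 6 calls were kept whichever library was left out.

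Peroxisomal β-oxidation rose in part. Of 13 genes tested, 6 were called higher (46.2%, against 5.20% of all nuclear genes) and 0 lower, with a median log2 change of 0.19. The called genes hold 1 or 2 members of each step of the cycle. LACS6 and LACS7, which activate fatty acids with coenzyme A, had log2 changes of 0.41 and 0.45. Among the acyl-CoA oxidases, which take the first step of the cycle, ACX2 stood at 116, 105 and 118 CPM in the wild type and 209.5, 177 and 168 CPM in clpp2-2 (log2 change 0.71, SE 0.103, adjusted p = 0.00687), and ACX3 had a log2 change of 0.43. MFP2, the multifunctional protein of the middle steps, stood at 171, 168 and 189 CPM and 433, 351 and 338 CPM (log2 change 1.09, SE 0.117, adjusted p = 0.00182). KAT2, the main thiolase of the last step, stood at 431, 478 and 457 CPM and 967, 859 and 832 CPM (log2 change 0.96, SE 0.0878, adjusted p = 0.000898). In each of these genes the groups were separate, and clpp2-2 library 1 was the highest for MFP2 and KAT2. The other 7 members did not pass the test, with log2 changes of -0.09 for ACX1, -0.05 for ACX4, -0.01 for AIM1, 0.19 for KAT1, -0.03 for KAT5, 0.15 for the fatty acid importer PXA1 and -0.32 for the oil body lipase SDP1. LACS7 lost its call without wild-type library 3 (adjusted p = 0.0547).

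Further genes of the peroxisome, named after their values were seen, moved with these. Among 109 nuclear genes annotated to the peroxisome, 15 were called higher (13.8%) and 1 lower (0.917%), with a median log2 change of 0. Over all nuclear genes the shares were 5.20% and 4.61%. The peroxisome term can include genes of the glyoxylate and β-oxidation lists above, so this count is not separate from theirs. CAT2 (AT4G35090), the catalase that removes the hydrogen peroxide of β-oxidation and photorespiration, stood at 250, 246 and 249 CPM in the wild type and 594, 507 and 494 CPM in clpp2-2 (log2 change 1.1, SE 0.0801, adjusted p = 0.000297). The 3 wild-type values were within a few CPM of each other, and all 3 clpp2-2 values were far above them. PEX11D, a membrane protein involved in peroxisome growth and division, had a log2 change of 0.97 (adjusted p = 0.00119). ECHIA, an enoyl-CoA hydratase, had 0.78, the peroxisomal aspartate aminotransferase ASP3 0.76 and the NAD carrier PXN 0.27. In the mitochondrion the aspartate aminotransferase ASP1 had a log2 change of 0.66 (adjusted p = 0.00841), and the aconitase ACO3 had 0.46. PXN lost its call without clpp2-2 library 2 (adjusted p = 0.0515), and ACO3 without wild-type library 1, clpp2-2 library 1 or clpp2-2 library 2 (0.0507 to 0.0555).

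**Figure D2:**
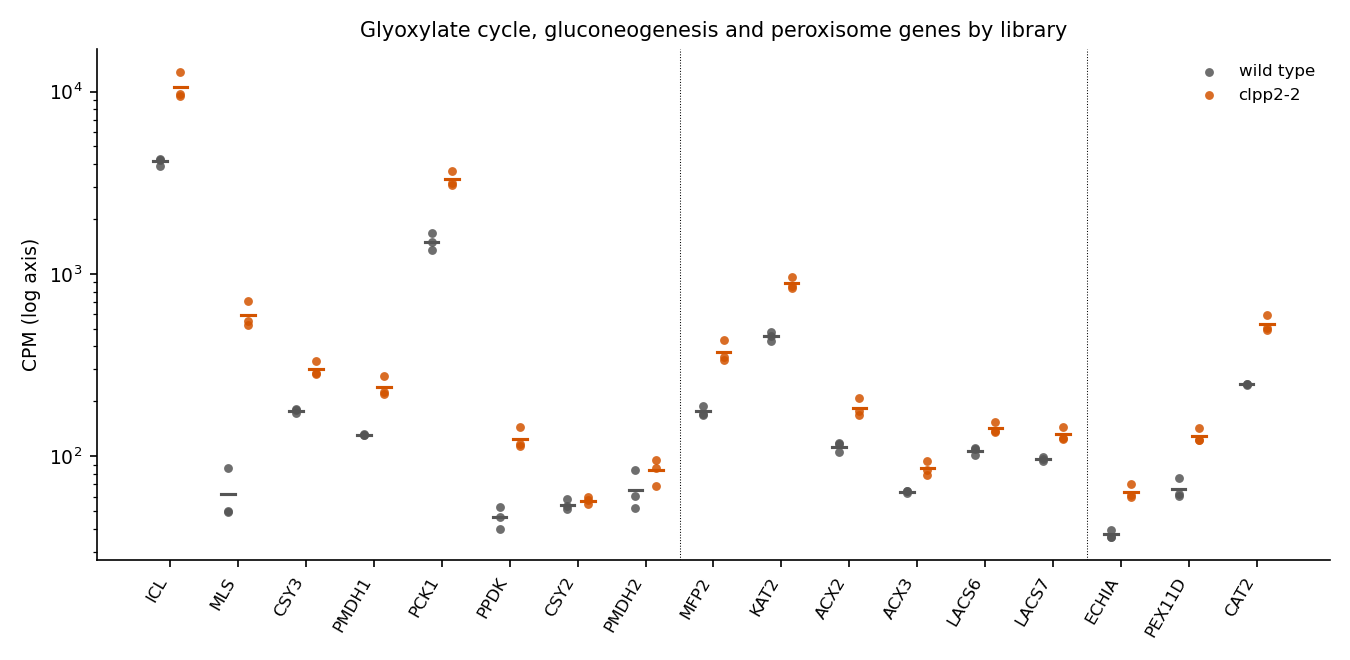
CPM on a log axis of the 8 genes of the glyoxylate cycle and gluconeogenesis (left of the first dotted line), the 6 called genes of β-oxidation (between the lines) and 3 further peroxisomal genes. Each point is 1 library, bars are means of 3 libraries, grey is the wild type and orange clpp2-2. The groups are separate in all genes but CSY2 and PMDH2.

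Nuclear genes for chloroplast proteins were more often higher than lower. Counts by location use the location terms in the RefSeq gene descriptions, which 12231 of the 20101 nuclear genes have; a gene may have several, and the grouping was chosen after the data were seen. Of 2422 genes with any chloroplast location, 296 were called higher (12.2%) and 58 lower (2.39%), with a median log2 change of 0.13. Of 9809 genes with a location that was not the chloroplast, 385 were called higher (3.92%) and 546 lower (5.57%), with a median of -0.04. Within the chloroplast the stroma had 59 of 260 genes higher and 3 lower, the envelope 51 of 286 and 1, and the thylakoid membrane 28 of 193 and 0. Among 653 genes of the mitochondrion 48 were higher (7.35%) and 22 lower (3.37%). The excess over the background rests on the libraries used. The share of chloroplast genes called was 14.6%, against 9.82% of all nuclear genes, and 37.8% against 20.5% without wild-type library 2. It was 2.97% against 3.62% without wild-type library 1 and 3.34% against 2.88% without wild-type library 3. Without clpp2-2 library 1, 2 or 3 it was 4.46% against 3.34%, 1.98% against 2.24%, and 2.64% against 2.74%. In these 5 cases without a library other than wild-type library 2, 40 to 91 chloroplast genes were called higher and 8 to 23 lower, and the median log2 change was 0.10 to 0.14. The mitochondrial counts fell to between 10 and 14 higher and between 2 and 5 lower.

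**Figure D3:**
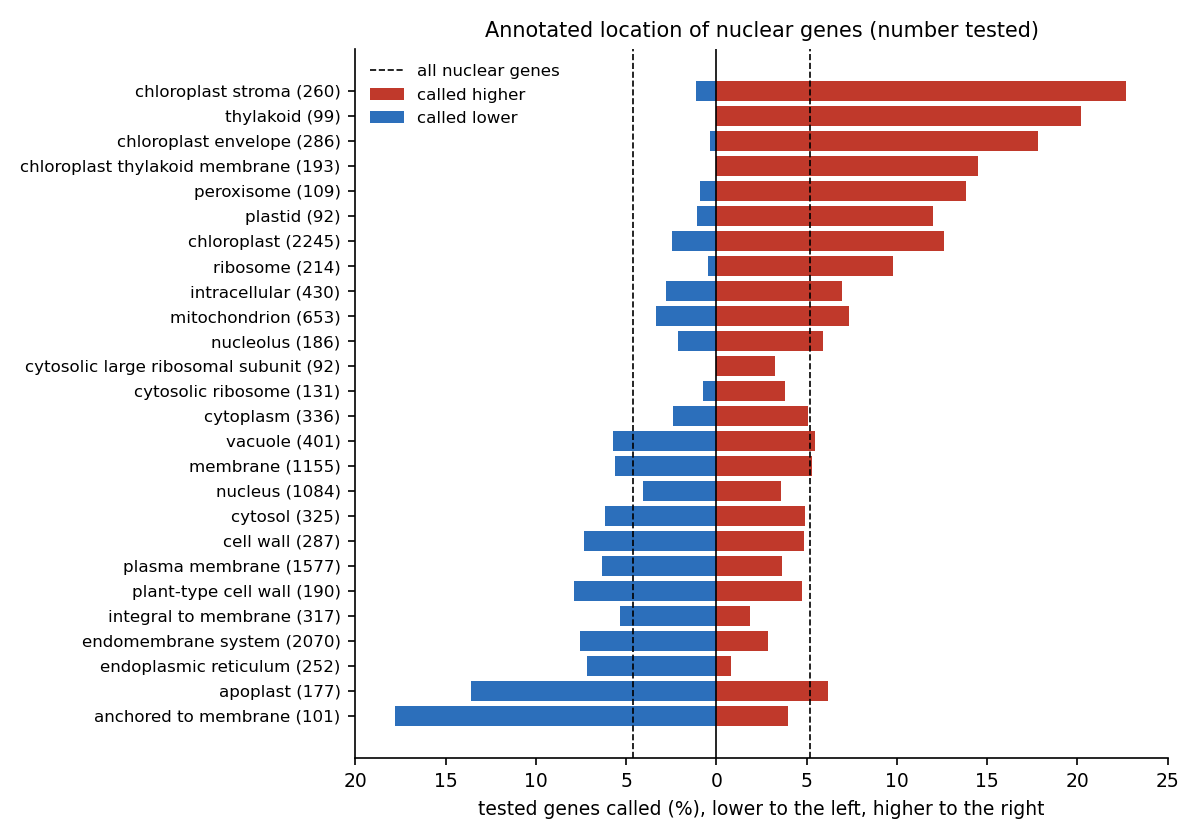
Share of tested nuclear genes called higher (red, to the right) and lower (blue, to the left) for each annotated location with at least 90 tested genes, whose number stands in brackets. Dashed lines give the shares of all nuclear genes, 5.20% higher and 4.61% lower. Chloroplast compartments and the peroxisome are at the top, and the apoplast and membrane-anchored proteins at the bottom.

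Genes of protein synthesis, protein import and folding in the chloroplast were looked at singly. Ribosomal proteins were split by location: with a chloroplast location 12 of 56 were called higher (21.4%) and 1 lower, and with another location 12 of 202 (5.94%) and 0. That count rests on the libraries used: of the 56, 32 were called higher without wild-type library 2, 4 without clpp2-2 library 1, 1 without wild-type library 3 and 0 when wild-type library 1, clpp2-2 library 2 or clpp2-2 library 3 was left out. Named after their values were seen, RPL21C had a log2 change of 0.54, EMB1473, a ribosomal protein of the L13 family, 0.53, and PRPL11 0.49. The translation factors SCO1 (elongation factor G), EMB2726 (elongation factor Ts) and RRF (ribosome recycling) had 0.37, 0.48 and 0.48. RRF stood at 104, 121 and 95.8 CPM in the wild type and 146, 148 and 154 CPM in clpp2-2. The aminoacyl-tRNA synthetases OVA2 and OVA6 had 0.30 and 0.27. Of 31 genes annotated to tRNA aminoacylation 6 were higher (19.4%) and 0 lower, and of 27 annotated to chloroplast organization 9 (33.3%) and 0. Among all nuclear genes 5.20% were higher. These 2 terms were picked from many process terms, and their counts with a library left out are not given here. The protein import components TOC33, TIC110 and TIC40 had log2 changes of 0.42, 0.27 and 0.22, and the folding chaperonins CPN60A and CPN60B 0.39 and 0.41. CPSRP54, which guides proteins to the thylakoid, had 0.39.

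Further chloroplast genes, also named after their values were seen, include 4 that rose. The sigma factor SIG4, which directs the plastid RNA polymerase to promoters, stood at 1.55, 1.39 and 1.7 CPM in the wild type and 3.62, 4.07 and 3.7 CPM in clpp2-2 (log2 change 1.3, SE 0.152, adjusted p = 0.00272). GYRA, the gyrase subunit of both organelles, stood at 55.5, 68.4 and 65.7 CPM and 104, 97.9 and 95 CPM (log2 change 0.64, SE 0.0863, adjusted p = 0.00498). NdhO, a subunit of the chloroplast NDH complex, had a log2 change of 0.62 (adjusted p = 0.000863), and the thylakoid protease EGY2 0.70. RRF, SIG4, GYRA, NdhO and EGY2 kept their calls without any 1 library. SCO1, CPN60A, CPN60B, TIC110, TIC40, TOC33, OVA2 and OVA6 lost theirs when any 1 library other than wild-type library 2 was left out (adjusted p = 0.0542 to 0.14). EMB1473 and PRPL11 lost them without wild-type library 1 or 3 or clpp2-2 library 2 or 3 (0.0629 to 0.0961). EMB2726 lost it without wild-type library 1 or any clpp2-2 library (0.0611 to 0.0829), RPL21C without wild-type library 1 or clpp2-2 library 2 or 3 (0.0727 to 0.081), and CPSRP54 without wild-type library 1 or clpp2-2 library 2 (0.0546 to 0.0573).

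In chlorophyll synthesis 3 of 10 genes rose (30%) and 0 fell. This and the other counts of this paragraph are to be read beside 5.20% higher and 4.61% lower among all nuclear genes. The 10 log2 changes of chlorophyll synthesis were all above 0, from 0.18 upward, with a median of 0.31. The 3 called genes were the protochlorophyllide oxidoreductases, which make chlorophyllide in the light. PORC stood at 9.71, 10.5 and 7.1 CPM in the wild type and 16.8, 17.3 and 16.5 CPM in clpp2-2 (log2 change 0.89, SE 0.135, adjusted p = 0.00833), and PORB at 133, 178 and 119 CPM and 232, 254 and 250.2 CPM (log2 change 0.78, SE 0.135, adjusted p = 0.0134). PORA was near the limit of detection, at 0.248, 0.53 and 0.161 CPM and 1.43, 1.44 and 1.24 CPM (log2 change 2.12, SE 0.476, adjusted p = 0.0306). The groups were separate in all 3. FLU, which restrains the pathway in the dark, had a log2 change of 0.35 (adjusted p = 0.01), and HEMC, porphobilinogen deaminase, 0.36. Photosystem and light-harvesting proteins gave 0 calls among 38 genes, although 35 were above 0 with a median of 0.27. Of 8 leaf mesophyll marker genes 3 were called higher and 0 lower, and all 8 were above 0 (median 0.47), with summed levels of 17725, 23483 and 15278 CPM in the wild type and 21538, 28033 and 28235 CPM in clpp2-2. The Rubisco small subunit genes RBCS2B (0.91) and RBCS3B (0.72) are near-identical copies, and reads may be shared between them. The part of leaf tissue in these values was not tested. PORB lost its call without wild-type library 1 or clpp2-2 library 2 (adjusted p = 0.0532 to 0.0541), and PORA, RBCS3B and HEMC without any 1 library other than wild-type library 2 (0.0551 to 0.124).

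Of 14 starch genes 3 rose (21.4%, against 5.20% of all nuclear genes) and 0 fell, with a median log2 change of 0.06. APL3, a large subunit of ADP-glucose pyrophosphorylase, the entry enzyme of starch synthesis, stood at 27.2, 38.8 and 44.4 CPM in the wild type and 134, 105 and 108 CPM in clpp2-2 (log2 change 1.65, SE 0.192, adjusted p = 0.00264). QQS, a gene specific to Arabidopsis thaliana that modulates starch content, stood at 1.16, 0.976 and 0 CPM and 19.1, 23 and 17.2 CPM (log2 change 4.79, SE 0.722, adjusted p = 0.00793). DPE1, which rearranges maltotriose during starch breakdown, had a log2 change of 0.47. The groups were separate in all 3 genes, most widely in QQS.

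Among 19 mitochondrial proteases and chaperones 4 rose (21.1%, against 5.20% of all nuclear genes) and 0 fell. CLPX3, a chaperone subunit that delivers substrates to CLPP2, stood at 62.9, 53.4 and 46.5 CPM in the wild type and 72.9, 73.5 and 76 CPM in clpp2-2 (log2 change 0.45, SE 0.108, adjusted p = 0.0369). MTHSC70-1, HSP60-2 and the peptidase ICP55 had log2 changes of 0.38, 0.36 and 0.23. The chaperones CLPX1 and CLPX2 and the protease LON1 gave -0.06, 0.16 and 0.25, with adjusted p = 0.345, 0.0575 and 0.0748. MTHSC70-1, HSP60-2 and ICP55 lost their calls without any 1 library other than wild-type library 2 (adjusted p = 0.0646 to 0.14), and CLPX3 without wild-type library 3 or any clpp2-2 library (0.0835 to 0.104).

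The mitochondrial dysfunction stimulon is the set of nuclear genes that the factor ANAC017 turns on when mitochondrial respiration is blocked. Of its 18 genes 0 were called higher and 1 lower (5.56%), beside 5.20% and 4.61% of all nuclear genes. Its median log2 change was -0.09, and its summed level was 667, 817 and 857 CPM in the wild type and 729.8, 669 and 695 CPM in clpp2-2, ranges that overlap. The alternative oxidase AOX1A stood at 95.3, 130 and 148 CPM and 94.3, 83.5 and 96.4 CPM (log2 change -0.44, adjusted p = 0.0921). The external dehydrogenase NDB2 had -0.44 (adjusted p = 0.0514), the outer membrane protein OM66 -0.26 (0.247) and UPOX 0.14 (0.568). The lower gene was the small heat shock protein AT4G25200, at 9.88, 29 and 26.3 CPM and 7.88, 7.78 and 7.82 CPM (log2 change -1.47, SE 0.361, adjusted p = 0.0395), which lost its call in every case but that without wild-type library 1 (0.0574 to 0.124).

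In the cold, drought and abscisic acid list, 7 of 25 genes rose (28.0%) and 3 fell (12.0%), with a median log2 change of 0.25. Over all nuclear genes 5.20% rose and 4.61% fell. Of the cold genes, CBF2, CBF3, COR15A, COR15B and COR27 rose, the cold dehydrin LTI30 fell, and others did not pass the test. CBF2, a transcription factor that turns on cold genes through the dehydration response element, stood at 0.248, 0.641 and 0.484 CPM in the wild type and 4.04, 3.93 and 4.52 CPM in clpp2-2 (log2 change 3.17, SE 0.317, adjusted p = 0.0013). Its neighbour CBF3 stood at 0.138, 0.418 and 0.296 CPM and 1.07, 0.905 and 1.47 CPM (log2 change 2.00, SE 0.462, adjusted p = 0.033). CBF1, the third gene of the cluster, was not tested, with 1, 0 and 1 counts in the wild type and 5, 5 and 4 in clpp2-2. COR15B and COR15A, tandem genes for chloroplast proteins that protect membranes in frost, are shown with the 200 bases before their starts, because the 2 neighbours rose together and differ in these windows. Capitals mark dehydration response elements (ACCGAC or GCCGAC), site II elements (TGGGCT) and a G-box (CACGTG), on either strand.
COR15A: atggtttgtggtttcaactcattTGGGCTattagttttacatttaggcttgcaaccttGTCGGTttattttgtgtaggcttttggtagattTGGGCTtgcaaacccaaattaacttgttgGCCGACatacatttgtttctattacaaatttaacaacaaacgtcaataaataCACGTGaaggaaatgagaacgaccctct
COR15B: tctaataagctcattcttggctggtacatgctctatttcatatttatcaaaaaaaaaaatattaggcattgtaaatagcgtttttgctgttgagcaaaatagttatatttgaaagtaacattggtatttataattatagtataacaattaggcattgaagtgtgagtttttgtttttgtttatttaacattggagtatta
The COR15A window (chr2:17712331-17712530) holds all of these and the COR15B window (chr2:17710434-17710633) none of the motifs searched.

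COR15B stood at 2.07, 2.79 and 1.48 CPM in the wild type and 13, 13.2 and 12.3 CPM in clpp2-2 (log2 change 2.60, SE 0.21, adjusted p = 0.000514), and COR15A at 6.18, 6.61 and 4.66 CPM and 13.3, 11.1 and 11.2 CPM (log2 change 1.03, SE 0.154, adjusted p = 0.00761). COR27, a cold and clock regulator, had 0.83 (adjusted p = 0.00219). The groups were separate in each. Other cold and dehydration genes did not pass the test: RD29A had a log2 change of 0.13 (adjusted p = 0.557), COR47 -0.20 (0.341), KIN1 0.25 (0.477) and RAB18 0.83 (0.208). The 3 lower genes were LTP4, LTP3 and the dehydrin LTI30. LTP4 stood at 123, 148 and 98.4 CPM and 10.5, 12.2 and 16.8 CPM (log2 change -3.23, SE 0.247, adjusted p = 0.000368), and LTP3 at 49.4, 50.4 and 44.2 CPM and 16.4, 14.8 and 17.4 CPM (log2 change -1.57, SE 0.103, adjusted p = 0.00017). These lipid transfer proteins are tandem copies, and reads may be shared between them. ABI4, an abscisic acid and sugar response factor named after its values were seen, stood at 0.883, 1.81 and 0.35 CPM and 8.49, 7.02 and 6.83 CPM (log2 change 2.87, SE 0.513, adjusted p = 0.015). CBF3 and LTI30, and the phosphatases HAI2 (1.62) and ABI1 (0.23), lost their calls without any 1 library other than wild-type library 2 (adjusted p = 0.0522 to 0.11), and ABI4 without wild-type library 1 or clpp2-2 library 2 (0.0514 to 0.0566).

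Of 20 rapid stress and touch genes 5 rose (25%, against 5.20% of all nuclear genes) and 0 fell. WRKY40, a repressor induced early in stress, stood at 6.54, 4.99 and 3.82 CPM in the wild type and 15.6, 14.4 and 20.3 CPM in clpp2-2 (log2 change 1.71, SE 0.229, adjusted p = 0.00497). ERF5, an ethylene response factor, stood at 15.6, 7.69 and 12 CPM and 33, 33.9 and 30.8 CPM (log2 change 1.47, SE 0.213, adjusted p = 0.00687). The zinc finger genes SZF1, ZAT12 and ZAT10 had log2 changes of 0.63, 0.65 and 0.39. Others of the list gave small values or fell short of the test, among them WRKY33 (0.12, adjusted p = 0.483), WRKY53 (-0.33, 0.489) and TCH4 (-0.38, 0.305). ZAT12 lost its call without clpp2-2 library 3 (adjusted p = 0.0558) and ZAT10 without wild-type library 1 or any clpp2-2 library (0.077 to 0.127). Across transcription factor families the ERF and AP2 factors had 5 of 51 higher (9.8%) and 0 lower, the NAC factors 1 of 67 (1.49%) and 8 (11.9%), and the WRKY factors 2 of 56 (3.57%) and 5 (8.93%), beside 5.20% higher and 4.61% lower among all nuclear genes. Without 1 library other than wild-type library 2, 2 to 3 ERF and AP2 factors were called higher, 4 to 7 NAC factors lower and 1 to 2 WRKY factors lower. NAC019, a stress factor, rose from 1.41 ± 0.188 to 4.2 ± 1.03 CPM (log2 change 1.57, adjusted p = 0.00877). HEC1, a helix-loop-helix factor of meristem and carpel growth, rose from 4.08 ± 1.19 to 14.3 ± 1.82 CPM (1.81, 0.00273).

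Genes that time flowering moved in both directions. Of 11 genes of the flowering list 1 rose (9.09%) and 3 fell (27.3%), beside 5.20% and 4.61% of all nuclear genes. FLC, the repressor that vernalization silences, stood at 2.1, 2.17 and 2.05 CPM in the wild type and 7.25, 6.53 and 8.07 CPM in clpp2-2 (log2 change 1.79, SE 0.218, adjusted p = 0.00324). SOC1, an activator of flowering that FLC represses, stood at 7.17, 7.41 and 5.89 CPM and 2.97, 2.63 and 3.47 CPM (log2 change -1.17, SE 0.168, adjusted p = 0.00654). SEP3, a floral organ factor, stood at 9.85, 9.92 and 8.21 CPM and 3.46, 3.39 and 3.39 CPM (log2 change -1.45, SE 0.136, adjusted p = 0.00102). All 9 clpp2-2 values lay outside the wild-type range of the same gene. TEM1, a further repressor of flowering, rose from 47.6 ± 1.95 to 97.7 ± 7.34 CPM (log2 change 1.04, SE 0.0675, adjusted p = 0.00016). AP3 was under 1 CPM in every library and lost its call whichever library was left out (adjusted p = 0.068 to 0.142). SVP and FLM, repressors that act with FLC, gave -0.07 (adjusted p = 0.782) and 0.26 (0.101).

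Genes of the endomembrane system, the apoplast and membrane-anchored proteins were more often lower than higher. The shares here are to be read beside 4.61% lower and 5.20% higher among all nuclear genes. Of 2070 genes annotated to the endomembrane system, a term given to many secreted proteins, 156 were called lower (7.54%) and 59 higher (2.85%), with a median log2 change of -0.12. Among 177 genes of the apoplast 24 were lower (13.6%) and 11 higher (6.21%), and among 101 genes anchored to membranes 18 (17.8%) and 4 (3.96%). Without 1 library other than wild-type library 2, 29 to 59 endomembrane genes were called lower and 25 to 39 higher. In those cases 2.24 to 3.62% of all nuclear genes were called in either direction. Genes annotated to the cell wall, 287 in all, had 21 lower (7.32%) and 14 higher (4.88%), and that order turned when a library was left out: 6 were lower and 8 higher without clpp2-2 library 1, and 5 lower and 6 higher without wild-type library 3 or clpp2-2 library 2. Class III peroxidases, secreted enzymes that cross-link the cell wall, had 10 of 55 lower (18.2%) and 0 higher; 51 of the 55 were below 0, and the median was -0.46. Without 1 library other than wild-type library 2, 2 to 3 peroxidases were called lower, and lipid transfer proteins and the extensin group had 5 to 6 and 1 to 9 lower calls. PRXCB stood at 286, 308 and 378 CPM in the wild type and 179.9, 197 and 221 CPM in clpp2-2 (log2 change -0.70, SE 0.11, adjusted p = 0.00914), and the peroxidase gene AT2G38390 fell from 52.2 ± 10.1 to 21.6 ± 4.68 CPM (mean ± SD, n = 3, log2 change -1.28, SE 0.213, adjusted p = 0.0117). Lipid transfer proteins had 13 of 65 lower and 2 higher, and extensins and arabinogalactan proteins 10 of 89 lower and 1 higher, with AGP2 at a log2 change of -1.06. The single wall hydrolase genes XYL4 and BXL1 fell by 0.67 and 1.32 on the log2 scale, and wall hydrolases as a class were not counted. AGP2 lost its call without clpp2-2 library 2 (adjusted p = 0.0544).

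Several abundant genes for defence proteins were lower in clpp2-2. HCHIB, a basic chitinase, stood at 736, 485 and 661 CPM in the wild type and 211, 289.9 and 276 CPM in clpp2-2 (log2 change -1.28, SE 0.213, adjusted p = 0.0116). PR4, a hevein-like protein, stood at 778, 500.1 and 721 CPM and 290.3, 364 and 333 CPM (log2 change -1.02, SE 0.161, adjusted p = 0.00977). PR2, a glucanase induced by salicylic acid, stood at 79.9, 105 and 91.5 CPM and 26.3, 40.4 and 40.5 CPM (log2 change -1.37, SE 0.256, adjusted p = 0.0176). EARLI1, a lipid transfer-like protein, had a log2 change of -0.92 (adjusted p = 0.00375). In these 4 genes every clpp2-2 value was under every wild-type value. The salicylic acid list as a whole had 2 of 15 lower, PR2 and EARLI1, and 0 higher; PR1 had a log2 change of -1.22 (adjusted p = 0.27), the synthesis enzyme ICS1 0.26 (0.141) and the receptor NPR1 -0.15 (0.246). Receptor-like kinases had 10 of 81 lower and 2 higher, cytochromes P450 19 of 150 and 6, and UDP-glycosyltransferases 17 of 126 and 8. The lower share was thus 12.3% or more in each family, and it was 13.3% in the salicylic acid list. Among all nuclear genes 4.61% were lower and 5.20% higher. The lower counts of these 3 families fell to 2 to 3, 4 to 10 and 8 to 12 without 1 library other than wild-type library 2. In those cases 2.24 to 3.62% of all nuclear genes were called in either direction. PR2 lost its call without wild-type library 3 or any clpp2-2 library (adjusted p = 0.0518 to 0.0585), and osmotin OSM34 (-0.77) without any 1 library other than wild-type library 2 (0.119 to 0.135).

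Of 9 genes of the endoplasmic reticulum stress list, 5 fell (55.6%, against 4.61% of all nuclear genes) and 0 rose. All 9 were below 0, with a median log2 change of -0.22. The luminal chaperone BIP2 stood at 290, 244 and 299 CPM in the wild type and 222, 214 and 217 CPM in clpp2-2 (log2 change -0.35, SE 0.0868, adjusted p = 0.0402), and its stress-induced relative BIP3 at 12.3, 10.5 and 9.34 CPM and 7.47, 6.87 and 6.89 CPM (log2 change -0.60, SE 0.121, adjusted p = 0.0229). The lectin chaperones CNX1, CRT2 and CRT3, which fold glycoproteins, had -0.30, -0.23 and -0.17. BIP1 and BIP2 are near-identical copies, between which reads may be shared. Among 252 genes annotated to the endoplasmic reticulum 18 were lower and 2 higher. BIP2, CNX1, CRT2 and CRT3 lost their calls without any 1 library other than wild-type library 2 (adjusted p = 0.0659 to 0.15), and BIP3 without wild-type library 1 or any clpp2-2 library (0.0561 to 0.0851).

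**Figure D4:**
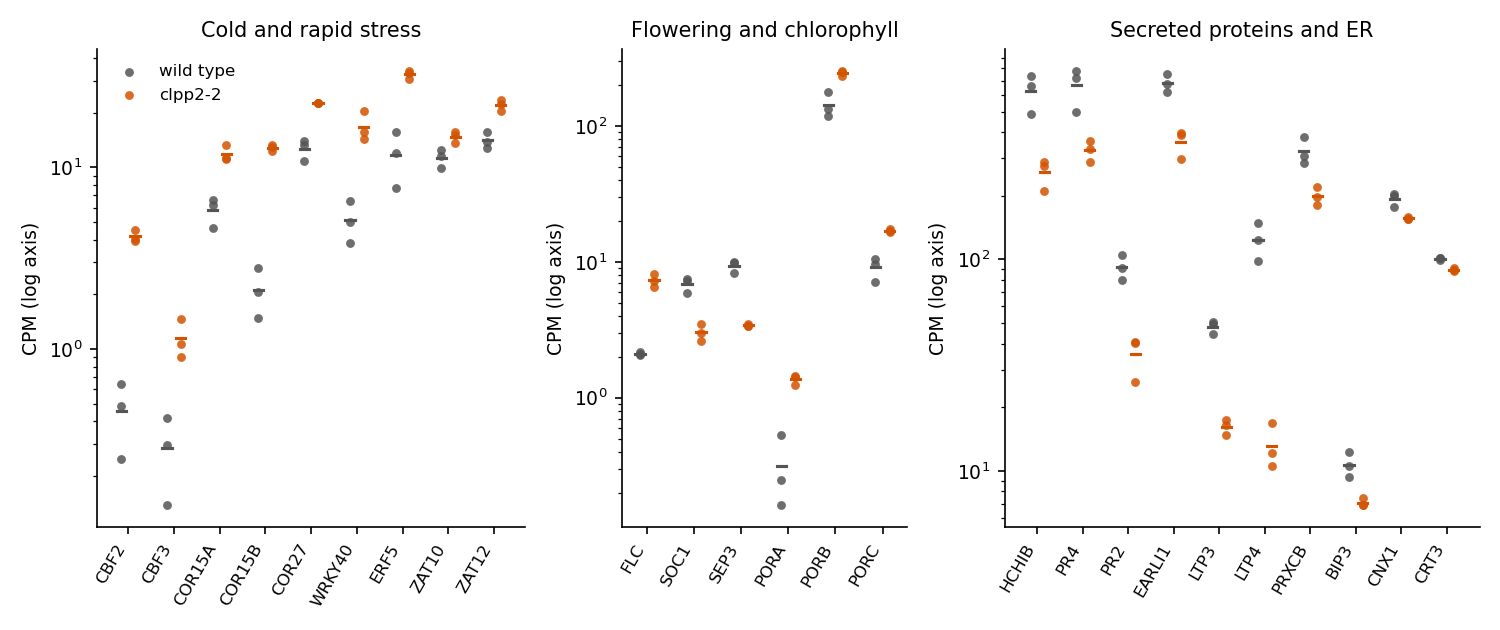
CPM on a log axis in the wild type (grey) and clpp2-2 (orange); each point is 1 library and each bar the mean of 3. Cold and rapid stress genes are on the left, flowering and chlorophyll genes in the middle, and secreted and endoplasmic reticulum proteins on the right; the groups are separate in every gene shown.

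The remaining lists had few calls or calls in both directions, with some shares above those of all nuclear genes. They are to be read beside 5.20% higher and 4.61% lower among all nuclear genes. Jasmonate (12 genes tested), hypoxia (14), senescence (7) and iron storage (4) each had 0 calls, and iron deficiency had 0 higher and 1 lower of 19. The morning and evening clock lists had 1 lower each, of 8 and 12: PRR9, a morning repressor, with a log2 change of -0.66 (adjusted p = 0.00779), and GI with -0.31 (0.00921). Phosphate starvation had 1 of 25 higher and 3 lower (12%), with the kinase PPCK1 at -0.52 (adjusted p = 0.00522) and the phosphatase PAP10 at 0.52 (0.00322). In the list of carbon starvation and branched-chain amino acid breakdown 1 of 18 rose and 2 fell (11.1%). SEN1, a dark-induced gene, stood at 11, 9.53 and 12.9 CPM in the wild type and 52.8, 48.9 and 47.2 CPM in clpp2-2 (log2 change 2.16, SE 0.213, adjusted p = 0.00123), while ASN1, also dark-induced, gave -2.84 (adjusted p = 0.0622). Glucosinolate synthesis had 1 of 21 higher and 4 lower (19%), flavonoid synthesis 3 of 17 higher (17.6%) and 2 lower (11.8%), nitrogen assimilation 1 of 13 higher and 2 lower (15.4%), and sulfur assimilation 1 of 11 and 0. Without 1 library other than wild-type library 2, glucosinolate synthesis had 0 calls, and flavonoid synthesis had 0 to 1 higher and 0 lower. Markers of root (10 genes), guard cells (5), xylem (6), phloem (4) and dividing cells (9) gave 0 calls, with medians from -0.30 to 0.20. GI lost its call without clpp2-2 library 2 (adjusted p = 0.0538).

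**Figure D5:**
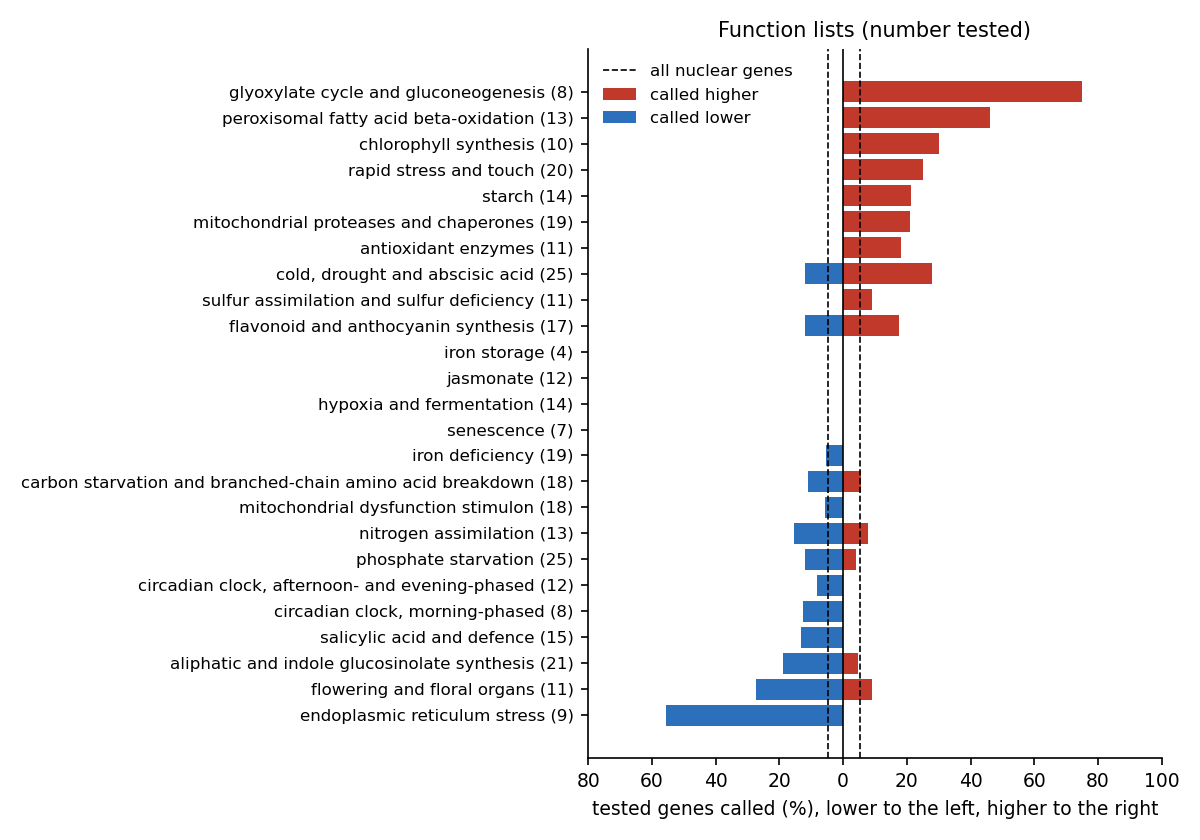
Share of the tested genes of each function list called higher (red, to the right) and lower (blue, to the left) in clpp2-2, with the number tested in brackets. Dashed lines give the shares of all nuclear genes, 5.20% and 4.61%. The glyoxylate cycle and β-oxidation lead the higher lists and endoplasmic reticulum stress the lower ones; lists of 4 to 25 genes give coarse shares.

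Promoter letters differed between the called groups. The 300 bases from 250 before to 50 after each start were searched on both strands in all 20101 nuclear genes. The site II element TGGGCC, common in genes of growth and protein synthesis, was in 18.5% of all promoters, 20.8% of the higher genes and 10.9% of the lower genes. Its second form TGGGCT was in 16.1, 17.5 and 7.87%. The telo-box AAACCCTA, often found beside it, was in 5.61, 8.51 and 3.24%. The evening element AAAATATCT was in 2.96% of all promoters, 5.16% of the higher genes and 2.59% of the lower genes. The W-box form TTGACT, bound by WRKY factors, ran the other way, with 21.9, 18.5 and 26.1%. The abscisic acid response element ACGTGNC, which overlaps the G-box CACGTG where any base and then C follow it, was in 11.4, 14.0 and 10.1%. The mitochondrial dysfunction motif, the element of the stimulon's promoters, was in 1.79, 1.53 and 1.62%. These are descriptions without a test.

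Genes called in the same direction lay side by side in 14 runs of at least 3 neighbouring genes, 9 higher and 5 lower. Of all nuclear genes 5.20% were called higher and 4.61% lower, and how many runs these shares alone would give was not worked out. Only 2 runs held 4 genes. The first, on chromosome 1 from 27435306 to 27443859 (TAIR10.1), holds 4 small genes with a Toll/interleukin-1 receptor domain, AT1G72910, AT1G72920, TIR and AT1G72940. Their log2 changes were 1.66, 1.85, 0.57 and 0.69. AT1G72920 stood at 2.87, 2.93 and 2.45 CPM in the wild type and 8.62, 10.9 and 10.3 CPM in clpp2-2. The second, on chromosome 4, holds AT4G39470 (0.41) and the cytochromes P450 CYP96A9 (0.86), CYP96A11 (2.71) and CYP96A12 (0.47). CYP96A11 stood at 1.19, 1.31 and 1.78 CPM and 13.1, 9.22 and 5.76 CPM. Neighbours of 1 family can share reads. Chromosome 2 carries an insertion of mitochondrial DNA, and read sharing with mitochondrial genes was not tested for its run from 3476873 to 3489670. TIR lost its call without wild-type library 1 or 3 or clpp2-2 library 2 or 3 (adjusted p = 0.0754 to 0.107), and AT4G39470 and CYP96A12 without any 1 library other than wild-type library 2 (0.063 to 0.143).

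Genes outside these lists changed too, some of them among the widest. PAP3, YSL6 and SWEET10 were not in the widest set and were named after their values were seen. AT2G47780, a rubber elongation factor protein (the family of lipid droplet proteins), stood at 7.15, 11.5 and 5.79 CPM in the wild type and 157, 137 and 134 CPM in clpp2-2 (log2 change 4.13, SE 0.286, adjusted p = 0.000218). MRD1 stood at 5.44, 8.7 and 8.29 CPM and 78.7, 74.1 and 79 CPM (log2 change 3.37, SE 0.157, adjusted p = 2.75e-05). PAP3, a purple acid phosphatase, stood at 9.49, 12 and 9.88 CPM and 40.6, 40.2 and 37.2 CPM (log2 change 1.91, SE 0.191, adjusted p = 0.0013), and the metal-nicotianamine transporter YSL6 at 21.1, 20.7 and 20.6 CPM and 52.9, 50 and 49.3 CPM (log2 change 1.29, SE 0.0494, adjusted p = 1.88e-05). AT3G02400, an FHA domain protein, was lower, at 16, 14.1 and 13.9 CPM and 0, 1.27 and 1.19 CPM (log2 change -4.16, SE 0.628, adjusted p = 0.00795). MLP328, a latex-like protein, stood at 36.9, 27.4 and 28.2 CPM and 4.2, 4.81 and 5.25 CPM (log2 change -2.70, SE 0.378, adjusted p = 0.00607). The sugar transporter SWEET10 had a log2 change of -1.23 (adjusted p = 0.00302). In each of these genes the 2 groups were separate, which was a condition for naming a gene as among the widest. Each kept its call whichever library was left out. Other genes of the widest set did not: NUDT5 and AT4G37220 each lost theirs in 5 of these cases.

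These changes were compared directly between the 2 knock-out lines. The test of clpp2-2 against clpp2-1 called 801 of 20101 nuclear genes (3.98%), whereas clpp2-1 against the wild type called 9 (0.0448%); the comparisons share libraries. ICL stood at 3642, 4117 and 5241 CPM in clpp2-1, and its log2 difference between the lines (clpp2-2 minus clpp2-1) was 1.3 (adjusted p = 0.0044). MLS stood at 65.5, 99.5 and 93.3 CPM there (2.79, 0.0015), CAT2 at 258, 224 and 247 CPM (1.13, 0.000546), COR15B at 1.96, 2.51 and 2.34 CPM (2.50, 0.00092) and FLC at 1.58, 2.07 and 2.99 CPM (1.72, 0.00615). In these 5 genes every clpp2-2 value was above every clpp2-1 value. PR4 and HCHIB were not called between the lines: PR4 stood at 552, 466 and 540.4 CPM in clpp2-1 (log2 difference -0.66, adjusted p = 0.061), and HCHIB at 543, 335 and 434 CPM (-0.76, 0.0896). For CLPP2 the difference was -0.27 (adjusted p = 0.119). With 1 allele per line, the allele and anything else that differs between the lines cannot be told apart.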

How the data were processed

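RNA was measured in 9 libraries of whole seedlings, 3 each of the wild type, clpp2-1 and clpp2-2, grouped by their titles. The authors deposited 1 table of estimated counts per gene, rounded to whole numbers, for 22254 genes; per the submitters' processing notes the tools were FastQC, Salmon 0.14.0, DESeq and DESeq2 and the build TAIR10, with no role given. Every gene has at least 10 counts over the 9 libraries. Library totals ran from 36043744 to 36477053 counts, so close that scaling before deposition is possible. Salmon estimates can move reads between transcripts and near-identical genes. The sources used here do not say whether counting used strand, so overlapping antisense genes cannot be told apart.

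The test was edgeR's quasi-likelihood F test (edgeR 4.0.16 under R 4.3.3), fitted once to the 9 libraries so that they share 1 estimate of the spread. Of the genes filterByExpr kept 20294 and removed 1960, and the TMM normalization factors lay between 0.974 and 1.025. Calls were made where the p adjusted by Benjamini and Hochberg, over every gene of the contrast, was under 0.05. CPM values use the TMM library sizes, and each SE was taken as the log2 change's size divided by the square root of F. Wild type and clpp2-2 libraries of the same number had correlations of their deviations of 0.0612, 0.0872 and -0.00569 across 11806 genes, so the numbers were not taken to pair libraries. Alternatives were DESeq2 size factors and its Wald test (DESeq2 1.42.0), limma-voom (limma 3.58.1), no filter, only the 6 libraries compared, a replicate block, library sizes without organelle genes, and each library left out in turn.

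The gene lists, families and motifs were chosen with earlier results of these data known, and lists are described by counts and medians only. Named genes are CLPP2; the 15 higher and 15 lower nuclear genes with the widest log2 change and the 8 with the largest CPM change each way, among called genes with separate groups and a mean of at least 1 CPM; up to 3 members each way per list and 2 per family; and the longest runs. Further genes are said to be named after their values were seen; those named for a location or beside a list's named members were chosen that way too. Genes of the widest set with a group at 0 counts, or under 1 CPM in most libraries, are not described. Names, positions, location terms and promoters came from RefSeq TAIR10.1, whose chromosomes carry the names of the TAIR10 build; the deposited table holds no coordinates. Location counts with each library left out were added after the data were seen. Further software was pandas 2.3.3 and NumPy 2.4.6 on Python 3.11.15, with matplotlib 3.10.9 for the plots. The reads themselves were not analysed.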

Additional observations from a re-analysis of the deposited data

Results flagged for a closer look

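A direct test of clpp2-2 against clpp2-1 singled out named genes whose change from the wild type was unlike in the 2 knock-out lines of the same gene (edgeR quasi-likelihood test, adjusted p from 8.93e-05 to 0.0446). Genes of fat breakdown, the glyoxylate cycle and the peroxisome had log2 differences (clpp2-2 minus clpp2-1) of 1.3 for ICL, 2.79 for MLS, 1.00 for PCK1, 0.68 for CSY3, 0.83 for KAT2, 1.00 for MFP2, 0.69 for ACX2 and 1.13 for CAT2. Chlorophyll, Rubisco and starch genes had log2 differences (clpp2-2 minus clpp2-1) of 2.64 for PORA, 0.68 for PORB, 0.74 for PORC, 0.93 for RBCS2B, 1.45 for APL3, 0.48 for DPE1 and 3.35 for QQS. Cold and rapid stress genes had log2 differences (clpp2-2 minus clpp2-1) of 2.59 for CBF2, 2.50 for COR15B, 0.69 for COR27, 1.63 for WRKY40, 1.44 for ERF5 and 0.47 for SZF1. Flowering genes had log2 differences (clpp2-2 minus clpp2-1) of 1.72 for FLC, -1.14 for SOC1 and -1.24 for SEP3. Secreted and defence genes had log2 differences (clpp2-2 minus clpp2-1) of -1.15 for LTP3, -2.52 for LTP4, -2.98 for AT4G12520, -0.82 for EARLI1, -1.27 for PR2, -0.33 for CNX1 and -0.40 for BIP2. Nutrient, carbon and other metabolic genes had log2 differences (clpp2-2 minus clpp2-1) of 2.62 for SEN1, 0.36 for PAP10, -0.67 for PPCK1, -1.66 for PECP1, -0.97 for NPC4, -0.44 for TSB1, 0.63 for CLPX3, 0.60 for MYB51, 1.80 for MYBL2 and -1.80 for CYP705A5. Of the genes with the widest or largest changes, the differences were 6.27 for AT3G44006, 4.36 for AT4G18900, 2.71 for AT1G15330, 3.34 for IAA20, 3.76 for AT2G47780, 3.04 for AT3G58060, 3.74 for AT5G50360, 2.36 for AT4G25330, 3.07 for MRD1, -3.94 for AT3G02400, -1.99 for MLP328 and 0.49 for AT2G16586. These genes were named for their change in clpp2-2, so that a difference from clpp2-1, where 9 nuclear genes were called against the wild type, is partly set by that choice. The calls against the wild type of AT4G12520, PECP1, NPC4, MYB51 and MYBL2 were lost without any 1 library other than wild-type library 2 (adjusted p = 0.0516 to 0.137), that of AT3G58060 without clpp2-2 library 1 or 3 (0.0518 to 0.0582) and that of AT5G50360 without wild-type library 1 or 3 (0.0544 to 0.0598). The causes were not tested.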

How the results depend on the processing

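The 1116 genes called higher and 928 called lower moved most with the libraries used. Leaving out 1 library in turn gave 327 to 2237 higher and 175 to 2005 lower genes, and the highest counts came without wild-type library 2. The DESeq2 Wald test called 1845 higher and 1565 lower, and only the 6 libraries compared gave 725 and 491, by construction with fewer samples behind the spread. Of the 2044 calls, 1936 remained without wild-type library 2, 483 without clpp2-2 library 2 and 578 to 703 without any other 1 library. DESeq2 size factors kept 2012, limma-voom 1865, no filter 1859, library sizes without organelle genes 1969 and the 6 libraries alone 1109. With the replicate number as a block 1450 of the calls remained among 1653. The numbers share no stated origin, so what a call lost there means cannot be told. CLPP2 kept its direction and its call under every alternative run. The named calls lost without 1 library had adjusted p-values of up to 0.15 there, and genes under 1 CPM are limited by depth.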
